A study of Mus musculus with 18 samples.

Results

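The genes described here encode the subunits of Polycomb repressive complex 2 (PRC2). They are the catalytic subunits Ezh2 and Ezh1, the core subunits Eed, Suz12 and Rbbp7, the Polycomb-like proteins Phf1, Mtf2 and Phf19, and the accessory subunits Jarid2 and Aebp2. They make up 10 of the 18820 genes measured, each read by a probe set that carried its symbol alone and, for Eed and Rbbp7, by the brighter of their 2 such probe sets. Expression was measured in clone C2 of mouse embryonic fibroblasts that had been transformed with c-Myc (iMEFs), on 18 Affymetrix Mouse Gene ST arrays with 2 arrays in each of 9 groups. In the time course the cells were taken 5, 18 and 32 days after tamoxifen, or after vehicle (ethanol). Vehicle cells form a single group without a stated day, so the later times have no vehicle arrays of their own. Loss of Ezh2, exposure to tamoxifen and time in culture therefore cannot be told apart in the time course. In the rescue experiment the groups were Ezh2 post-rescue, Ezh1 pre-rescue and Ezh2 pre-rescue cells, Ezh2 null cells (labelled Ezh2 -/-) and control cells (labelled Ezh2 WT). The study's methods describe a clone derived by limiting dilution from c-Myc-transformed Ezh2 flox/Δ; ROSA26-CreERT2 cells, in which a Cre recombinase expressed from the ROSA26 locus acts only when tamoxifen is given. They do not name it, and it was taken here to be C2. If so, all 9 groups carry the c-Myc retrovirus, and vehicle and control cells carry a deleted Ezh2 allele beside the conditional one, although the control is labelled wild type. Rescued cells received Flag-tagged Ezh1 or Ezh2 by retrovirus, before deletion of the endogenous gene (pre-rescue) or after it (post-rescue). Per the study, tamoxifen induced the deletion in this experiment too, and infected cells were selected with hygromycin. Loss of Ezh2 and exposure to tamoxifen therefore cannot be told apart between Ezh2 null and control cells. Nor can a supplied enzyme be told apart from infection and selection, as the labels name no empty vector in control or Ezh2 null cells. The labels do not give the days after deletion in the rescue experiment.

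All values are log2 intensities, on which 1 unit is a 2-fold change. The medians of the time-course arrays were 4.98 to 5.08 and those of the rescue arrays 6.16 to 6.27, so the 2 experiments stood on different scales and levels were compared only within each. Replicate arrays correlated across genes at r of 0.998 to 0.9985 in the time course and 0.994 to 0.998 in the rescue experiment. The study calls the replicates biological, but neither it nor the labels say that they were separate cultures, so the p-values cover the spread of these arrays alone, which may be technical. Of 8 fibroblast markers, 7 lay above the array median on all arrays of both experiments, the exception being Thy1. None of 5 epithelial, 4 endothelial and 5 pluripotent cell markers did so, and of 4 blood cell markers only Cd68 did.

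PRC2 places the repressive H3K27me3 mark. Ezh2 and Ezh1 are paralogous methyltransferases that need Eed, which binds the mark already present, and Suz12, which holds the complex together, while Rbbp7 binds histones. Phf1, Mtf2 and Phf19 are related proteins that join the same form of the complex and help it reach or stay on chromatin. Jarid2 and Aebp2 belong to another form. In cultured fibroblasts Ezh2 is known as a gene of dividing cells, and Ezh1 as the paralogue that prevails in tissues that divide little.

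All 10 genes had promoter windows in RefSeq (GRCm38.p6), 14 windows in all, each running 300 bases from 250 bases before a transcript start. They were searched on both strands for the E2F motif (TTTCCCGC, TTTCGCGC, TTTGCCGC or TTTGGCGC), for the CHR element (TTTGAA) and for the CCAAT box, letters common in promoters of cell cycle genes. The letters searched do not overlap in the matches found. The E2F motif occurred in 3 of the 14 windows, those of Phf19, Ezh2 and Suz12, against 2.26% of 32851 windows of all genes. The CHR element occurred in 4 windows (Eed, Suz12 and a downstream window each of Mtf2 and Aebp2), against 17.9% of all, and the CCAAT box in 8, against 37.4%. The member windows held between 2 and 41 CpG dinucleotides, against a median of 7 over all windows, and the windows with the E2F motif held 31 to 41. These are matches of letters and not measured binding sites. Eed and Mtf2, which rose in the time course as Phf19, Ezh2 and Suz12 did, held no E2F motif in their windows, and neither did the other 5 members. The stretches below show the 3 matches of the E2F motif and, for comparison, the promoter of Ezh1, which held none of the 3 motifs. Capitals mark the matched letters, and positions count from the transcript start of the window. Phf19 (chr2:34914166-34914195, minus strand) carries the motif on the opposite strand at -208 to -201, and Ezh2 (chr6:47595009-47595038, minus strand) at 4 to 11. Their transcript starts lie 377 and 240 bases inside the outer end of the RefSeq gene. Suz12 (chr11:79992856-79993105, plus strand) is shown from -250 to -1 with the E2F motif at -219 to -212, the CHR element at -203 to -198 and the CCAAT box at -61 to -57. Ezh1 (chr11:101226464-101226713, minus strand) is shown over the same 250 bases.
Phf19: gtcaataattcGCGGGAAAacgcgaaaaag
Ezh2: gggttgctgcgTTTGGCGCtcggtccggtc
Suz12: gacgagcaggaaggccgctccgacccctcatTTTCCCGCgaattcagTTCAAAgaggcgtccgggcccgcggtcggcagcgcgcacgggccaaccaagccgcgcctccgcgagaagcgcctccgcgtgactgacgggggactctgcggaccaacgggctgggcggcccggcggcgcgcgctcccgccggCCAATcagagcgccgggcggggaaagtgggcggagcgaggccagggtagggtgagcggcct
Ezh1: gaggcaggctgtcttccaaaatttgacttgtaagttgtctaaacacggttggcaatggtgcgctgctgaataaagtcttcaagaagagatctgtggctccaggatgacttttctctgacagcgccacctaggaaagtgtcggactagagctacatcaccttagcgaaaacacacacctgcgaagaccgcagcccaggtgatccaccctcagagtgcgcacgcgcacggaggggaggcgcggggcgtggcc

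Positions of the genes are given on GRCm38.p6. The time course asks how the rest of PRC2 was transcribed as Ezh2 was lost. By day 32, the transcripts of Ezh2, Eed, Suz12, Mtf2 and Phf19 had risen and those of Ezh1, Phf1 and Jarid2 had fallen, while Rbbp7 and Aebp2 did not pass the test (limma with Benjamini-Hochberg adjustment over 18820 genes, adjusted p under 0.05 at any fold). Phf19 had the largest change of the 10. Over all genes 18.4% rose and 14.2% fell, so changes at this time were common. The median change of the 10 genes was 0.251, against -0.018 over all genes. Only Phf19 changed by at least 2-fold. In bulk RNA, fewer cells of a type and less RNA per cell cannot be told apart.

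**Figure D1:**
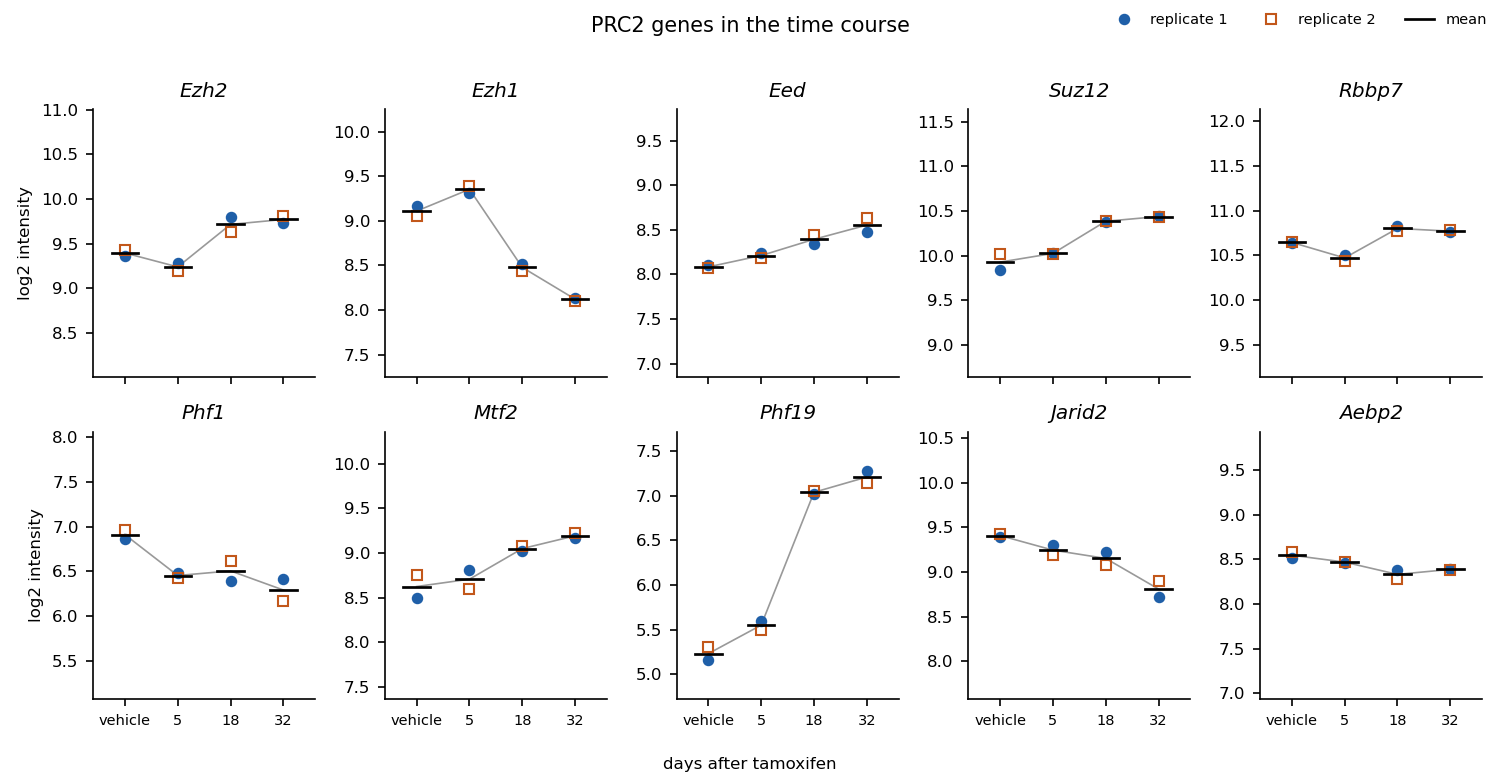
Log2 intensity (y axis, each panel spanning 3 units) of the 10 PRC2 genes with vehicle and at 5, 18 and 32 days after tamoxifen (x axis), 1 point per array with the group mean as a bar. Phf19 stands between 5.16 and 5.60 on the vehicle and day 5 arrays and between 7.02 and 7.28 on the later arrays, while Ezh1 falls to 8.10 to 8.14 by day 32.

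Among the catalytic subunits, Ezh1 and Ezh2 moved in opposite directions. Ezh1 (chr11:101191115-101226463) read 9.17 and 9.05 with vehicle, 9.31 and 9.39 on the day 5 arrays, 8.51 and 8.44 on the day 18 arrays and 8.14 and 8.10 on the day 32 arrays. The vehicle and day 5 arrays were high, the day 18 arrays lower and the day 32 arrays lowest, with no overlap between groups. The change of Ezh1 at day 5 was 0.24 ± 0.08 (SE, n = 2 each, limma adjusted p = 0.0599) and did not pass. Ezh1 was called higher at day 5 with the lowest 30% of genes left out (adjusted p = 0.0372) and with a variance trend (0.0184). It fell by 0.63 ± 0.08 at day 18 (adjusted p = 0.00028) and by 0.99 ± 0.08 at day 32 (adjusted p = 1.21e-05), which is 1.98-fold. From day 18 to day 32 its change was -0.36 ± 0.08 (adjusted p = 0.0357). In the main fit Ezh1 was the only member called between these times, when 2.75% of all genes fell. That last call was lost with the replicate number as a block (adjusted p = 0.0528), with array medians aligned (0.0675) and without each of the 4 arrays (0.102 to 0.22).

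Ezh2 (chr6:47530274-47595270) read 9.37 and 9.43 with vehicle, 9.29 and 9.19 on the day 5 arrays, 9.80 and 9.63 on the day 18 arrays and 9.73 and 9.81 on the day 32 arrays. The later arrays all lay above the vehicle arrays and the day 5 arrays below them. Ezh2 rose by 0.32 ± 0.08 at day 18 (adjusted p = 0.02) and by 0.38 ± 0.08 at day 32 (adjusted p = 0.0068). The study's methods place the deleted region in the SET domain, the catalytic part. The probe set of Ezh2 gives 1 value for the whole gene, and which of its probes lie in that region was not examined here, so this reading does not check the deletion. The labels were taken as given. The day 18 call was lost without day 18 replicate 1 (adjusted p = 0.143), without vehicle replicate 1 (0.0906) and with array medians aligned (0.148), and the day 32 call without day 32 replicate 2 (0.054).

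Of the core subunits, Suz12 and Eed rose and Rbbp7 did not pass against vehicle. Suz12 (chr11:79993106-80034123) read 9.84 and 10.02 with vehicle, 10.03 and 10.02 on the day 5 arrays, 10.38 and 10.39 on the day 18 arrays and 10.44 and 10.44 on the day 32 arrays. The day 5 arrays stood beside the higher vehicle array, and all later arrays lay above both. Suz12 rose by 0.46 ± 0.08 at day 18 (adjusted p = 0.0024) and by 0.51 ± 0.08 at day 32 (adjusted p = 0.00086). Both calls held under all 11 alternatives run.

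Eed (chr7:89954654-89980976) read 8.10 and 8.07 with vehicle, 8.24 and 8.18 on the day 5 arrays, 8.34 and 8.44 on the day 18 arrays and 8.48 and 8.63 on the day 32 arrays. Its groups did not overlap at any time. Eed rose by 0.31 ± 0.08 at day 18 (adjusted p = 0.0196) and by 0.47 ± 0.08 at day 32 (adjusted p = 0.0015), but both calls were lost when its 2 probe sets were averaged (adjusted p = 0.296 and 0.0522). The second probe set of Eed read 3.13 to 3.82 in the time course and 5.11 to 5.76 in the rescue experiment, below the array medians of each. The day 18 call was also lost with array medians aligned (0.146), without vehicle replicate 1 (0.056) or 2 (0.0669), and without day 18 replicate 2 (0.127). Rbbp7 (chrX:162760372-162779090) read 10.64 and 10.65 with vehicle, 10.50 and 10.44 on the day 5 arrays, 10.83 and 10.77 on the day 18 arrays and 10.76 and 10.78 on the day 32 arrays. Its day 5 arrays were the lowest and its later arrays the highest, and in the main fit it was called only between day 18 and day 5, where it rose by 0.33 ± 0.07 (adjusted p = 0.0056). With its 2 probe sets averaged Rbbp7 was called higher at day 18 (0.22, adjusted p = 0.0471), and so it was with a variance trend (0.0269). At day 5 it was called lower with array medians aligned (adjusted p = 0.0143) and with a variance trend (0.0208). The lower day 5 reading was on the brighter probe set alone. The other probe set of Rbbp7 read 10.32 and 10.50 with vehicle, 10.49 and 10.45 on the day 5 arrays and 10.70 to 10.71 on the later arrays.

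The 3 Polycomb-like genes did not move together. Phf19 (chr2:34893752-34914353) read 5.16 and 5.30 with vehicle, 5.60 and 5.50 on the day 5 arrays, 7.02 and 7.05 on the day 18 arrays and 7.28 and 7.14 on the day 32 arrays. Its 4 later arrays lay more than 1 unit above the 4 earlier ones. Phf19 rose by 0.32 ± 0.08 at day 5 (adjusted p = 0.0305), by 1.81 ± 0.08 at day 18 (adjusted p = 9.49e-07) and by 1.98 ± 0.08 at day 32 (adjusted p = 3.7e-07). The last is 3.94-fold and the 75th largest rise among 18820 genes. The calls at day 18 and day 32 held under all 11 alternatives, with changes of 1.65 to 1.88 and 1.86 to 2.05. The day 5 call was lost with quantile normalization (0.18, adjusted p = 0.185), with array medians aligned (0.17, adjusted p = 0.143), without either day 5 array (adjusted p = 0.162 and 0.0662) and without vehicle replicate 1 (0.157).

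Mtf2 (chr5:108065660-108109219) read 8.50 and 8.75 with vehicle, 8.81 and 8.60 on the day 5 arrays, 9.02 and 9.08 on the day 18 arrays and 9.16 and 9.22 on the day 32 arrays. The day 5 and vehicle arrays overlapped, and all later arrays lay above them. Mtf2 rose by 0.42 ± 0.10 at day 18 (adjusted p = 0.0136) and by 0.57 ± 0.10 at day 32 (adjusted p = 0.0021). The day 18 call was lost with array medians aligned (adjusted p = 0.054), without vehicle replicate 1 (0.0898) and without day 18 replicate 2 (0.079). Phf1 (chr17:26933127-26937908) took the other direction, with 6.86 and 6.96 with vehicle, 6.48 and 6.43 on the day 5 arrays, 6.39 and 6.61 on the day 18 arrays and 6.41 and 6.17 on the day 32 arrays. Both vehicle arrays lay above all 6 arrays after tamoxifen. Phf1 fell by 0.46 ± 0.10 at day 5 (adjusted p = 0.0152), by 0.41 ± 0.10 at day 18 (adjusted p = 0.0178) and by 0.62 ± 0.10 at day 32 (adjusted p = 0.0013). The day 5 call was lost without either day 5 array (adjusted p = 0.0631 and 0.0872) and without vehicle replicate 2 (0.07), and the day 18 call without day 18 replicate 1 (0.129) and without vehicle replicate 2 (0.0832).

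Of the other accessory subunits only Jarid2 was called. Jarid2 (chr13:44730774-44921643) read 9.39 and 9.42 with vehicle, 9.30 and 9.19 on the day 5 arrays, 9.22 and 9.08 on the day 18 arrays and 8.72 and 8.89 on the day 32 arrays. The day 32 arrays were the lowest. Jarid2 fell by 0.60 ± 0.09 at day 32 (adjusted p = 0.00065), a call that held under all 11 alternatives. Its change at day 18 was -0.26 ± 0.09 (adjusted p = 0.0637). At that time Jarid2 was called lower with quantile normalization (adjusted p = 0.0343) and with array medians aligned (0.0078). The same held with the lowest 30% of genes left out (0.0438) and with a variance trend (0.0161). From day 18 to day 32 Jarid2 changed by -0.34 ± 0.09 (adjusted p = 0.0682), near the change of Ezh1. This change was called with the lowest 30% of genes left out (0.0471), a variance trend (0.0098) or array weights (0.0436). Aebp2 (chr6:140622454-140678472) ranged between 8.28 and 8.58 over the 8 arrays, and its changes were -0.08, -0.21 and -0.16 at days 5, 18 and 32 (adjusted p = 0.538, 0.0572 and 0.131). With array medians aligned Aebp2 was called lower at all 3 times (-0.23, -0.37 and -0.28).

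By time, 1 member rose (Phf19) and 1 fell (Phf1) at day 5, when 11.0% of all genes rose and 5.72% fell. At day 18, 5 rose and 2 fell, against 15.2% and 10.5% of all genes. At day 32, 5 rose and 3 fell, against the shares given above. Between day 5 and day 18 Ezh2, Suz12, Rbbp7, Mtf2 and Phf19 rose and Ezh1 fell, against 15.6% of all genes that rose and 16.1% that fell. Phf19 rose by 1.49 ± 0.08 in this interval (adjusted p = 1.86e-06) and Ezh1 fell by 0.88 ± 0.08 (adjusted p = 2.4e-05). Without vehicle replicate 1, 4 members were called at day 18 in place of 7. The split of all genes into higher and lower calls depended on the scaling. The main values gave 2077 higher and 1077 lower genes at day 5, 2869 higher and 1969 lower at day 18 and 3468 higher and 2679 lower at day 32, quantile normalization gave 1643 and 1578, 2494 and 2542, and 3179 and 3160, and alignment of array medians gave 1218 and 4127, 1813 and 6153, and 2529 and 5001. Alignment moved the median of all genes to -0.154, -0.18 and -0.137. From day 18 to day 32 the main values gave 264 higher and 517 lower genes and aligned medians 408 and 423. No call of a member turned direction under either scaling.

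Proliferation genes also moved with time. The mean of 27 proliferation genes was 9.12 and 9.18 with vehicle, 8.87 and 8.90 on the day 5 arrays, 9.98 and 9.98 on the day 18 arrays and 10.15 and 10.12 on the day 32 arrays. None of the 27 rose and 12 fell at day 5, and all 27 rose at day 18 and at day 32, with a median change of 0.90 at day 32. Mybl2, a transcription factor of dividing cells, rose by 1.40 ± 0.07 at day 32 and Mcm2, a subunit of the replicative helicase, by 1.38 ± 0.08. Across the 8 arrays, which form 4 groups, the Pearson r of each member with this mean was 0.967 for Ezh2, 0.952 for Phf19, 0.931 for Suz12, 0.915 for Rbbp7, 0.897 for Mtf2 and 0.848 for Eed, and -0.984 for Ezh1. For Jarid2, Aebp2 and Phf1 it was -0.756, -0.753 and -0.48. These are descriptions of arrays that share treatment and time. The part of proliferation in the members' changes was not tested.

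Marker genes moved with time as well. Of 8 fibroblast markers 4 rose and 0 fell at day 5, 1 rose and 3 fell at day 18, and 0 rose and 3 fell at day 32, when Fn1, Pdgfrb and Col3a1 were lower by the test. Of 4 blood cell markers Lyz2, a lysozyme gene, rose at all 3 times (0.50, 1.77 and 0.90), while Ptprc, the leukocyte gene, lay at percentiles 18.1 to 26.4 of the arrays. Of 4 endothelial markers Tek (1.53) and Pecam1 (0.61) rose at day 5 and Pecam1 (0.37) at day 32, while Cdh5 lay at percentiles 18.6 to 27.8. Their part in the members' changes was not tested.

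**Figure D2:**
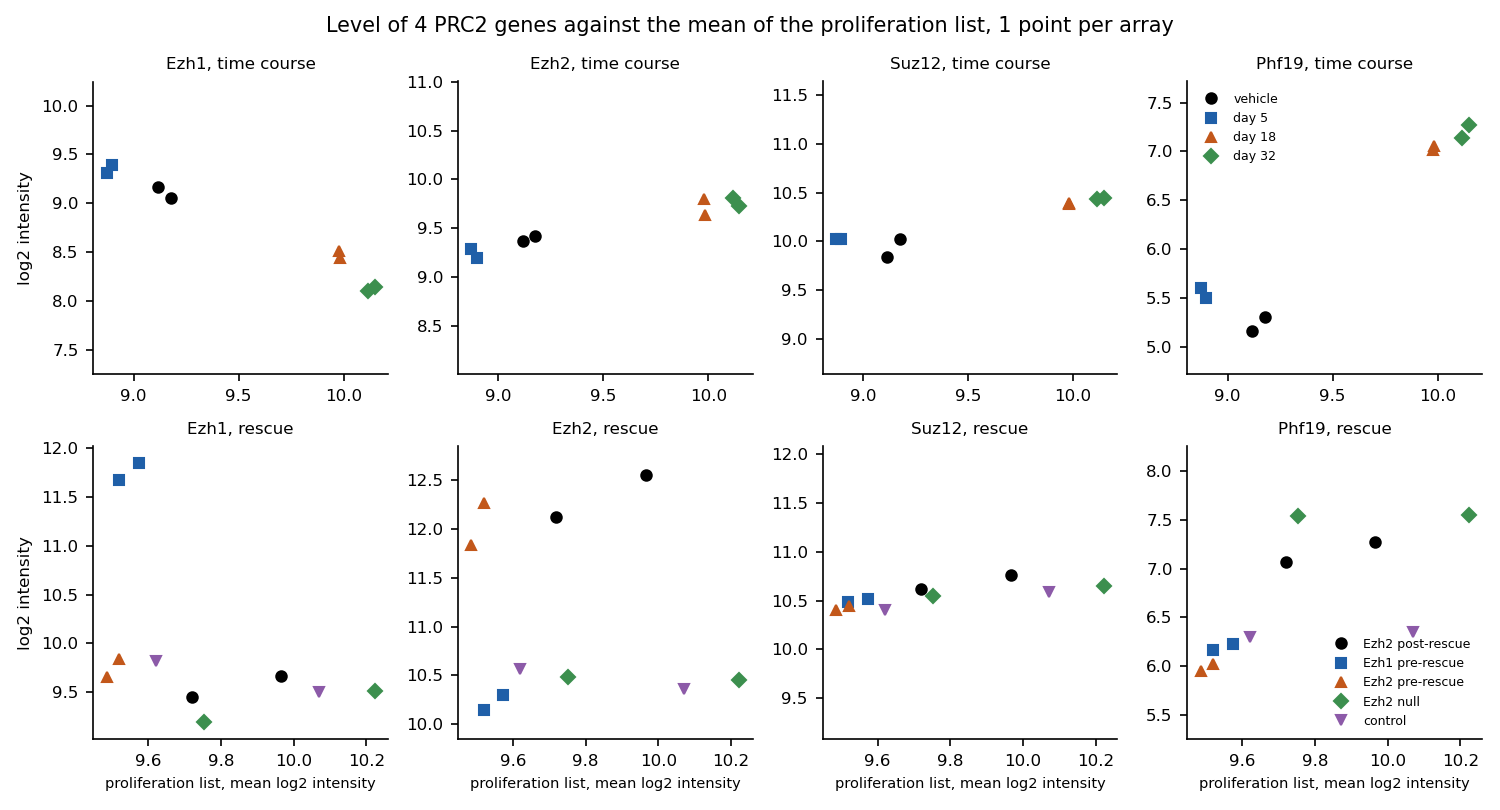
Log2 intensity of Ezh1, Ezh2, Suz12 and Phf19 (y axis, 3 units per panel) against the mean log2 intensity of 27 proliferation genes (x axis), 1 point per array, for the time course above and the rescue experiment below. In the time course the day 18 and day 32 arrays lie at 9.98 to 10.15 on the x axis, and in the rescue experiment Phf19 stands at 7.56 and 7.54 in Ezh2 null cells, whose arrays lie at 10.22 and 9.75 on the x axis.

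Genes around PRC2 were counted from lists, to be read against the shares of all genes, of which 11.0% rose and 5.72% fell at day 5, 15.2% rose and 10.5% fell at day 18, and 18.4% rose and 14.2% fell at day 32. Of 6 other PRC2 components 2 rose and 0 fell at day 5, 2 rose and 0 fell at day 18, and 4 rose and 0 fell at day 32. Those at day 32 were Epop (0.33 ± 0.09), which joins the Polycomb-like form of the complex, Lcor (0.26 ± 0.08), Lcorl (0.35 ± 0.11) and the elongin subunit gene Eloc (0.27 ± 0.08). Of 20 subunit genes of PRC1, the complex that ubiquitinates histone H2A, 4 rose and 1 fell at day 5, 7 rose and 2 fell at day 18, and 8 rose and 3 fell at day 32. At day 32 L3mbtl2 rose by 0.99 ± 0.08, Cbx2, which binds H3K27me3, by 0.86 ± 0.08 and Bmi1 by 0.74 ± 0.08, and Rnf2, the ubiquitin ligase, fell by 0.71 ± 0.07. Of 12 genes for H3K27 demethylases and methyltransferases that oppose PRC2, 3 rose and 1 fell at day 5, 1 rose and 1 fell at day 18, and 1 rose and 2 fell at day 32. At day 32 the demethylase gene Kdm6b fell by 0.69 ± 0.09 and Kdm6a by 0.27 ± 0.08, and Nsd2, an H3K36 methyltransferase gene, rose by 0.77 ± 0.09. Of 13 E2F and retinoblastoma factors 3 rose and 1 fell at day 5, 10 rose and 0 fell at day 18, and 10 rose and 1 fell at day 32, with a median change of 0.57 at day 32. E2f7, Rbl1, E2f2 and E2f4 rose by 1.27 ± 0.09, 0.94 ± 0.08, 0.78 ± 0.08 and 0.78 ± 0.08. Of 11 genes for factors known to work with PRC2, 1 rose and 1 fell at day 5, and 3 rose and 0 fell at each later time. Those at day 32 were the DNA methyltransferase genes Dnmt1 (0.92 ± 0.07) and Dnmt3b (0.90 ± 0.10) and the deacetylase gene Hdac2 (0.35 ± 0.09).

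The rescue experiment asks whether the same genes differ when Ezh2 is absent and when Ezh1 or Ezh2 is supplied. Of the 10 members Phf19 alone was called between Ezh2 null and control cells, where it rose and 0 members fell, against 1.20% of all genes that rose and 0.755% that fell (limma with the replicate number as a block). With array medians aligned 235 genes rose and 352 fell here, against 225 and 142 without. The median change of the members was -0.002, against -0.03 over all genes. The probe set of a supplied enzyme stood higher in its own rescue group than in Ezh2 null cells. Against Ezh2 null cells Phf19 fell where either enzyme had been supplied before the deletion, and did not pass the test where Ezh2 was supplied afterwards.

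**Figure D3:**
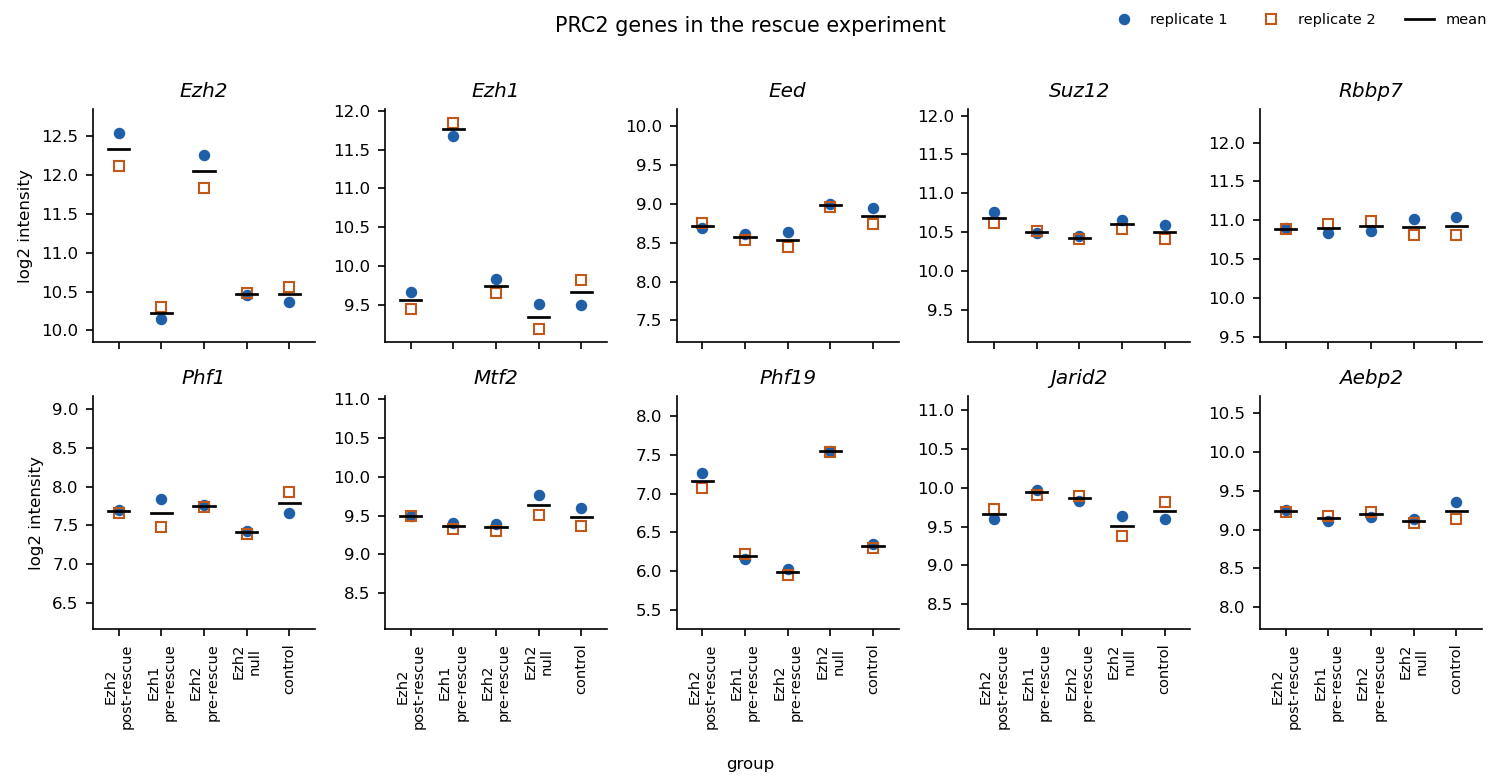
Log2 intensity (y axis, each panel spanning 3 units) of the 10 PRC2 genes in the 5 groups of the rescue experiment (x axis), 1 point per array with the group mean as a bar. Phf19 is at 7.56 and 7.54 in Ezh2 null cells and between 5.95 and 6.35 in both pre-rescue groups and control cells, and the supplied genes Ezh1 and Ezh2 stand at 11.68 and 11.85 (Ezh1) and at 11.84 to 12.55 (Ezh2) in their own rescue groups.

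Phf19 read 7.27 and 7.07 in Ezh2 post-rescue cells, 6.16 and 6.22 in Ezh1 pre-rescue cells, 6.03 and 5.95 in Ezh2 pre-rescue cells, 7.56 and 7.54 in Ezh2 null cells and 6.35 and 6.30 in control cells. No 2 groups overlapped. Phf19 rose in Ezh2 null cells by 1.22 ± 0.09 over control (SE, n = 2 each, adjusted p = 0.00143), which is 2.34-fold, with 1.205 and 1.242 within the first and the second replicates. The call held under all 11 alternatives (1.15 to 1.25). The mean of the 27 proliferation genes was 10.22 and 9.75 in Ezh2 null cells and 10.07 and 9.62 in control cells, and none of the 27 was called between them by limma at an adjusted p under 0.05. Over all genes 1.20% rose and 0.755% fell by that test. In the same comparison 2910 genes had an unadjusted p under 0.05, 2 members among them.

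Against Ezh2 null cells, Phf19 fell by 1.36 ± 0.09 in Ezh1 pre-rescue cells (adjusted p = 0.0016) and by 1.56 ± 0.09 in Ezh2 pre-rescue cells (adjusted p = 0.0007), and both calls held under all 11 alternatives. In Ezh2 post-rescue cells its difference from Ezh2 null cells was -0.38 ± 0.09 (95% interval -0.58 to -0.18, adjusted p = 0.105), with -0.283 and -0.475 within the first and the second replicates. These cells stood 0.84 ± 0.09 above control (adjusted p = 0.0064) and 1.18 ± 0.09 above Ezh2 pre-rescue cells (adjusted p = 0.0029). The call against control was lost without post-rescue replicate 1 (0.75, adjusted p = 0.101), and the call against Ezh2 pre-rescue without either pre-rescue array (adjusted p = 0.0633 and 0.0592). In order of level the groups were Ezh2 null, Ezh2 post-rescue, control, Ezh1 pre-rescue and Ezh2 pre-rescue cells. Neighbours in this order that did not pass a test were Ezh2 post-rescue and Ezh2 null (above), Ezh1 pre-rescue and control (-0.13, 95% interval -0.33 to 0.07, adjusted p = 0.724) and Ezh1 and Ezh2 pre-rescue (0.20, interval 0.00 to 0.40, adjusted p = 1). The proliferation mean was 9.97 and 9.72 in Ezh2 post-rescue cells, 9.52 and 9.57 in Ezh1 pre-rescue cells and 9.52 and 9.49 in Ezh2 pre-rescue cells, so it was lower in both pre-rescue groups than in Ezh2 null cells, and its part in the fall of Phf19 there was not tested.

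The supplied enzymes were read on their own probe sets. Ezh1 read 9.67 and 9.45 in Ezh2 post-rescue cells, 11.68 and 11.85 in Ezh1 pre-rescue cells, 9.84 and 9.65 in Ezh2 pre-rescue cells, 9.51 and 9.19 in Ezh2 null cells and 9.50 and 9.82 in control cells. Only the Ezh1 pre-rescue arrays stood apart, 2.10 ± 0.16 above control (4.29-fold, adjusted p = 0.027), 2.41 ± 0.16 above Ezh2 null (adjusted p = 0.0016) and 2.02 ± 0.16 above Ezh2 pre-rescue cells (adjusted p = 0.0363). The call against control was lost without control replicate 1 (adjusted p = 0.064) and without Ezh1 pre-rescue replicate 2 (0.251), and that against Ezh2 pre-rescue without each of the 4 arrays (0.0697 to 0.522). In Ezh2 null cells the change of Ezh1 against control was -0.31 ± 0.16 (interval -0.68 to 0.05, adjusted p = 0.398), with 0.004 and -0.631 within the 2 replicates.

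Ezh2 read 12.55 and 12.12 in Ezh2 post-rescue cells, 10.15 and 10.30 in Ezh1 pre-rescue cells, 12.26 and 11.84 in Ezh2 pre-rescue cells, 10.46 and 10.48 in Ezh2 null cells and 10.36 and 10.56 in control cells. Both Ezh2-supplied groups lay above the rest, and Ezh2 null and control cells overlapped. Ezh2 stood 1.87 ± 0.17 above control in Ezh2 post-rescue cells (adjusted p = 0.0047) and 1.86 ± 0.17 above Ezh2 null (adjusted p = 0.0109). Ezh2 pre-rescue cells stood 1.58 ± 0.17 above Ezh2 null (adjusted p = 0.0061) and 1.59 ± 0.17 above control, where the test was not passed (adjusted p = 0.183). In that comparison 0% of all genes rose and 0% fell by limma, although 1928 genes had an unadjusted p under 0.05, 3 members among them. Without control replicate 2 the same comparison gave 368 higher and 131 lower genes. The test was passed by Ezh2 with array medians aligned (adjusted p = 0.0363) and without control replicate 2 (0.0129). The calls against Ezh2 null were lost without either array of the rescued group (adjusted p = 0.119 and 0.0535 post-rescue, 0.0592 and 0.0547 pre-rescue), and that of post-rescue against control without post-rescue replicate 1 (0.0778). In Ezh1 pre-rescue against Ezh2 pre-rescue cells Ezh2 differed by -1.83 ± 0.17 (adjusted p = 0.076). The supplied transcript and the endogenous one cannot be told apart by these probe sets.

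Beyond Phf19 and the supplied genes a single call was made. Eed read 8.68 and 8.76 in Ezh2 post-rescue cells, 8.61 and 8.54 in Ezh1 pre-rescue cells, 8.64 and 8.44 in Ezh2 pre-rescue cells, 9.00 and 8.97 in Ezh2 null cells and 8.95 and 8.74 in control cells. The Ezh2 null arrays were the highest. Eed fell by 0.44 ± 0.09 in Ezh2 pre-rescue against Ezh2 null cells (adjusted p = 0.0337), and the call was lost in 7 of 11 alternatives, among them quantile normalization, where it lay at the threshold, alignment of array medians (adjusted p = 0.0901), the mean of both probe sets (0.232) and each array left out (0.0635 to 0.256). Against Ezh2 null the difference in Ezh1 pre-rescue cells was -0.41 ± 0.09 (adjusted p = 0.0635). Suz12 ranged between 10.40 and 10.76 over the 10 arrays, Rbbp7 between 10.81 and 11.05, Mtf2 between 9.31 and 9.77 and Aebp2 between 9.08 and 9.35, and none was called in the 9 comparisons. Phf1 read 7.43 and 7.39 in Ezh2 null cells and 7.65 and 7.93 in control cells, a change of -0.38 ± 0.13 (interval -0.69 to -0.07, adjusted p = 0.228). Jarid2 read 9.97 and 9.91 in Ezh1 pre-rescue cells, 9.83 and 9.90 in Ezh2 pre-rescue cells and 9.63 and 9.38 in Ezh2 null cells, with differences from Ezh2 null of 0.43 ± 0.12 (adjusted p = 0.0908) and 0.36 ± 0.12 (adjusted p = 0.111).

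By comparison, the members called were 2 that rose in Ezh2 post-rescue against control (Ezh2 and Phf19, against 0.510% of all genes), 1 in Ezh1 pre-rescue against control (Ezh1, against 0.0106%), and 1 in Ezh2 post-rescue against Ezh2 null (Ezh2, against 0.191%). Against Ezh2 null, 1 rose (Ezh1) and 1 fell (Phf19) in Ezh1 pre-rescue cells (0.861% and 1.44% of all genes). In Ezh2 pre-rescue cells 1 rose (Ezh2) and 2 fell (Phf19 and Eed), against 3.15% and 4.00%. Between rescues, 1 rose in Ezh1 pre-rescue against Ezh2 pre-rescue cells (Ezh1, the only gene called, 0.00531% of all genes). In Ezh2 post-rescue against Ezh2 pre-rescue cells 1 rose (Phf19, 0.574%). The calls of Ezh1 and Ezh2 are of the supplied genes and follow from the design, and these genes are themselves counted in the shares. They are therefore not a result about the members. These comparisons share control, Ezh2 null or Ezh2 pre-rescue arrays.

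The counts over all genes that these shares rest on moved strongly with single arrays. Without control replicate 2, Ezh1 pre-rescue against control gave 346 higher and 118 lower genes, in place of 2 and 0. Against Ezh2 null, Ezh1 pre-rescue cells gave 3 and 11 without Ezh1 pre-rescue replicate 1, 3 and 18 without replicate 2, 378 and 536 without Ezh2 null replicate 1 and 24 and 78 without Ezh2 null replicate 2. Ezh2 pre-rescue against Ezh2 null cells gave 22 and 42 without Ezh2 pre-rescue replicate 1, 2 and 11 without replicate 2 and 73 and 210 without Ezh2 null replicate 2. Ezh2 post-rescue against control gave 19 and 2 without Ezh2 post-rescue replicate 1, 49 and 7 without replicate 2 and 218 and 54 without control replicate 2, and against Ezh2 null 1 and 2, 2 and 3, and 95 and 131 without post-rescue replicates 1 and 2 and Ezh2 null replicate 1. Ezh2 post-rescue against Ezh2 pre-rescue gave 17 and 2, 39 and 10, 6 and 1, and 6 and 1 without post-rescue replicates 1 and 2 and pre-rescue replicates 1 and 2. Ezh2 null against control gave 357 and 258 without Ezh2 null replicate 1, 136 and 37 without replicate 2 and 302 and 653 without control replicate 1. With array medians aligned the split of all genes changed to 549 higher and 214 lower in Ezh1 pre-rescue against Ezh2 null (from the main values 162 and 271), 1037 and 485 in Ezh2 pre-rescue against Ezh2 null (592 and 752), 113 and 82 in Ezh2 post-rescue against control (96 and 37) and 122 and 177 in Ezh2 post-rescue against Ezh2 pre-rescue (108 and 58), and with quantile normalization to 77 and 104 in Ezh2 post-rescue against Ezh2 null (36 and 77), to 366 and 310 in Ezh1 pre-rescue against Ezh2 null and to 115 and 98 in Ezh2 post-rescue against Ezh2 pre-rescue.

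The 2 experiments were then compared, by testing the change in Ezh2 null cells against control minus the change at day 32 against vehicle. The difference was -0.75 ± 0.12 for Phf19 (adjusted p = 0.0028), -0.41 ± 0.11 for Suz12 (adjusted p = 0.041) and 0.67 ± 0.18 for Ezh1 (adjusted p = 0.0384), and the other 7 members did not pass. The changes of Phf19 and Suz12 were thus lower, and that of Ezh1 higher, in Ezh2 null cells than at day 32. Over all genes 2.48% had a positive and 5.64% a negative difference. Against day 18 only Phf19 differed (-0.58 ± 0.12, adjusted p = 0.0191), where 2.56% of all genes had a negative difference. The 27 proliferation genes rose at day 32 and were not called in Ezh2 null cells. Taken from day 32, 18 of them had a negative and 0 a positive difference by the test. Among these 18, Cdt1, Mcm2, Mcm3 and Tk1 had differences of -1.11, -1.23, -1.01 and -1.47. Of 13 E2F and retinoblastoma factors 7 had a negative and 0 a positive difference. When the spread of log2 values was matched between the experiments, the Phf19 difference from day 32 alone remained called, and the Phf19 difference from day 18 was -0.29 (adjusted p = 0.181). The days after deletion, the scale of the arrays and the experiment cannot be told apart here.

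**Figure D4:**
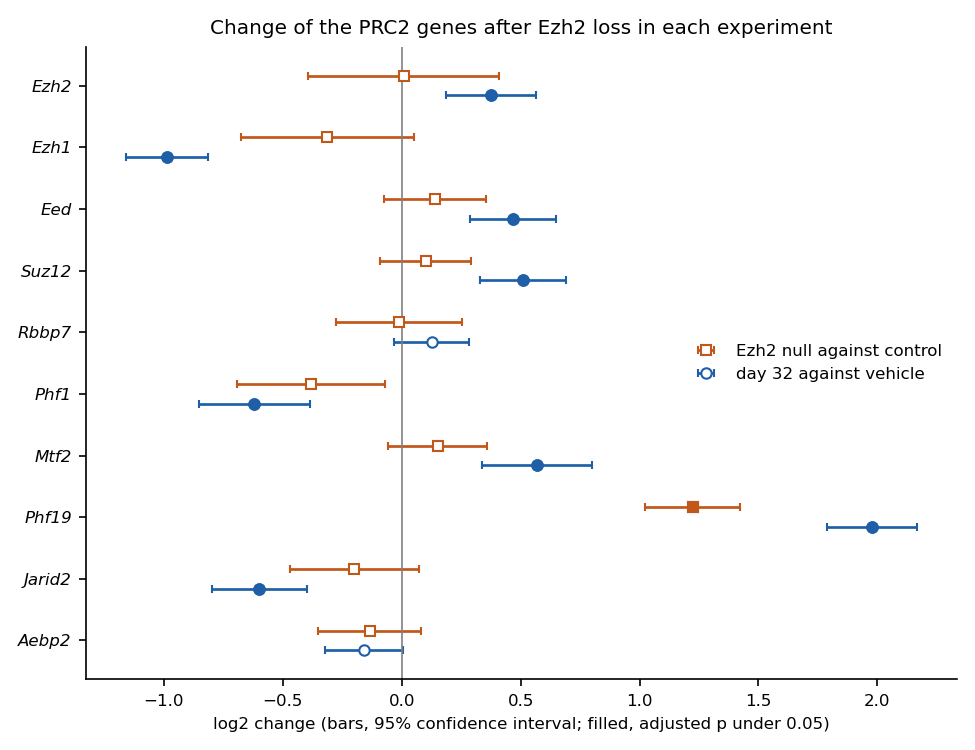
Log2 change (x axis) of each PRC2 gene (y axis) in Ezh2 null against control cells (squares) and at day 32 against vehicle (circles), with 95% confidence intervals and filled symbols at an adjusted p under 0.05. Phf19 is at 1.22 and 1.98, and Ezh1 at -0.31 and -0.99.

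Phf19 was the only member to change by at least 2-fold in the time course, and the genes most like it were therefore sought among 1859 protein-coding genes whose values ranged by at least 1 unit over the 8 arrays. The 5 closest were Cand2 (Pearson r = 0.9976), Ces2g, a carboxylesterase gene (0.9967), Mcm10, a replication factor gene (0.9965), Arxes1 (0.9965) and Mcm3, a helicase subunit gene (0.9961). The 8 arrays form 4 groups, so many genes that step up between day 5 and day 18 reach a high r. In Ezh2 null against control cells only Ces2g of the 5 was called (1.19 ± 0.13, adjusted p = 0.0071), Arxes1 changed by 1.36 ± 0.31 without passing (adjusted p = 0.0807), and Mcm10, Mcm3 and Cand2 by 0.28, 0.19 and 0.13 (adjusted p = 0.393, 0.568 and 0.576). In Ezh2 post-rescue cells Ces2g read 5.10 and 5.17, against 5.91 and 6.39 in Ezh2 null cells and 4.95 and 4.96 in control cells. It fell by 1.02 ± 0.13 against Ezh2 null cells (adjusted p = 0.0261), where Phf19 did not pass.

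**Figure D5:**
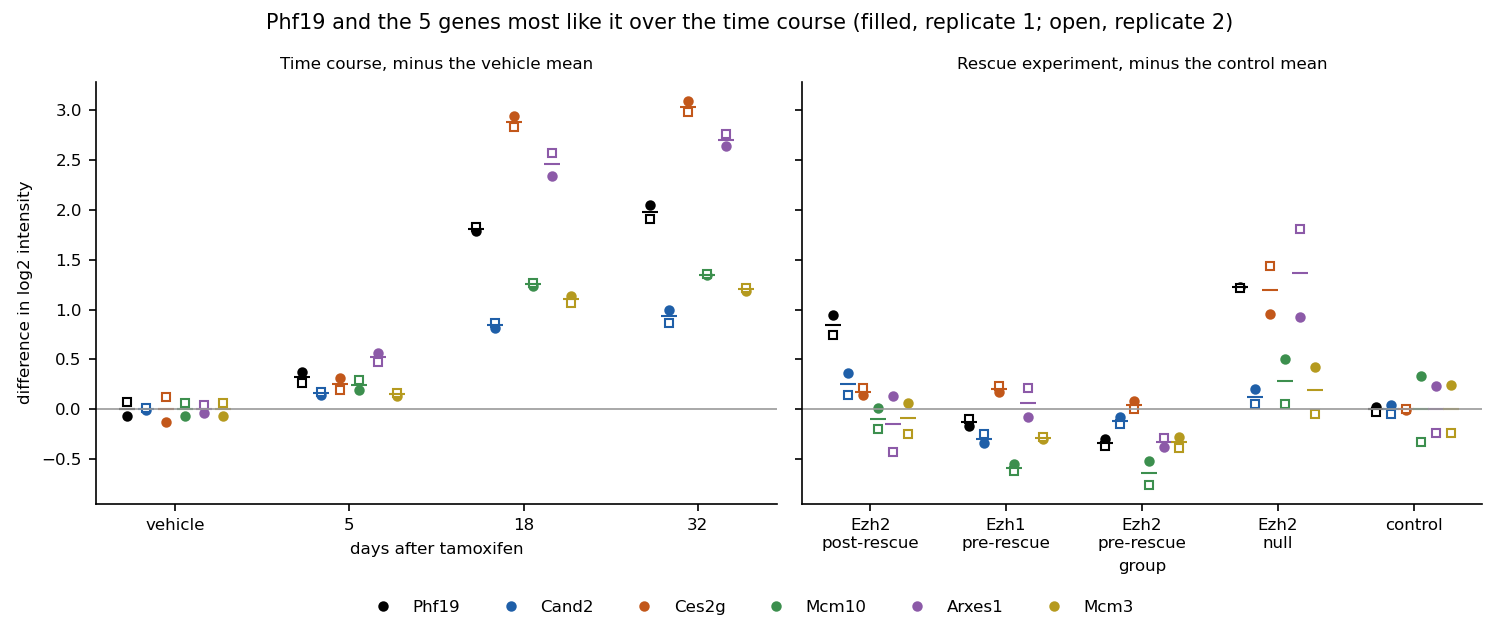
Difference in log2 intensity (y axis) of Phf19 and the 5 genes most like it from the vehicle mean over the time course (left) and from the control mean in the rescue groups (right), 1 point per array. The 6 genes step up together by day 18. In Ezh2 null cells Arxes1, Phf19 and Ces2g are 1.36, 1.22 and 1.19 above control, and Mcm10, Mcm3 and Cand2 0.28, 0.19 and 0.13.

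In Ezh2 null against control cells 0 of the 6 other PRC2 components, 20 PRC1 subunits, 12 demethylases and opposing methyltransferases, 13 E2F and retinoblastoma factors and 27 proliferation genes were called by limma, and of 11 cofactors only Dnmt3b was, which rose by 0.58 ± 0.08 (adjusted p = 0.0164). The shares of all genes were 1.20% that rose and 0.755% that fell, at which lists of this size hold few calls. The median change of the proliferation genes was 0.147, against -0.03 over all genes. Dnmt3b fell against Ezh2 null cells by 0.66 ± 0.08 in Ezh2 post-rescue cells, 0.49 ± 0.08 in Ezh1 pre-rescue cells and 0.61 ± 0.08 in Ezh2 pre-rescue cells. Of the 20 PRC1 subunits 1 fell in Ezh1 pre-rescue cells and 4 in Ezh2 pre-rescue cells against Ezh2 null cells, and 0 rose, where 1.44% and 4.00% of all genes fell. Cbx2 fell in both (0.61 ± 0.08 and 0.75 ± 0.08), and L3mbtl2 (0.47), Yaf2 (0.44) and Rybp (0.44) in Ezh2 pre-rescue cells. Of the 13 E2F and retinoblastoma factors 3 fell and 0 rose in each of these comparisons. These were E2f3, E2f2 and E2f6, which fell by 0.61, 0.58 and 0.51 in Ezh1 pre-rescue cells and by 0.65, 0.61 and 0.50 in Ezh2 pre-rescue cells. Fibroblast markers moved there too, with Pdgfrb (0.87) and Col1a2 (0.71) higher in Ezh1 pre-rescue and Pdgfrb (0.95), Col1a2 (0.82) and Col3a1 (0.74) higher in Ezh2 pre-rescue cells, and their part was not tested. Of the proliferation genes 2 fell in Ezh1 pre-rescue cells and 4 in Ezh2 pre-rescue against Ezh2 null cells, among them Cdt1, a replication licensing factor gene (0.66 ± 0.09 and 0.91 ± 0.09). Across the 10 arrays the r of each member with the proliferation mean was 0.932 for Mtf2, 0.785 for Eed, 0.782 for Suz12 and 0.685 for Phf19, and between -0.668 and 0.53 for the other 6, as a description.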

How the data were processed

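The series holds 18 arrays of clone C2. Per the methods, RMA in oligo was the authors' normalization, and the deposited values are log2 intensities per probe set. The methods also name a limma correction for replicate batches in the rescue experiment, and whether the deposited values carry it is not stated. The study's own test, RankProduct, was not run here. The build used for the arrays is not given in the sources used here.

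Of 28440 probe sets, 21217 carried 1 gene symbol, 1881 several and 5342 none. The brightest single-symbol probe set stood for each of 18820 genes. Rbbp4, found only with several symbols, was not used here. The tests came from limma 3.58.1 (R 4.3.3; lmFit, eBayes), for the time course without a block (4 residual and 5.27 prior degrees of freedom), for the rescue experiment with the replicate number as a block because of the stated batch (4 and 3.62), and over all 18 arrays for the differences between experiments (8 and 4.89). All were two-sided, with Benjamini-Hochberg adjustment across the 18820 genes. A gene that "rose" or "fell" had an adjusted p below 0.05, whatever its fold. With 2 arrays against 2 an exact permutation test could not pass, so none is given. The code was tested on simulated data.

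Replicate differences of different groups correlated across genes between -0.07 and 0.055 over 6 pairs of groups in the time course and between -0.429 and 0.544 over 10 pairs in the rescue experiment, 6 of them negative, so only the stated batch supports the block. The number of arrays limits the precision.

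The genes, lists, comparisons and alternatives were chosen with earlier results of these data known. All 10 members were named in each comparison, up to 4 genes with the smallest adjusted p in each list, and the 5 genes most like a member with a 2-fold change in the time course. Alternatives were the block, quantile normalization, alignment of array medians, the lowest 30% of genes left out, a variance trend, array weights, the mean of probe sets, matched spread and each array left out. Promoter windows were searched as a description. Protein sequences were not used here.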

Additional observations from a re-analysis of the deposited data

Results flagged for a closer look

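Between the 2 experiments, 4 changes differed by the test of the difference itself (limma over all 18 arrays, adjusted p under 0.05). The change in Ezh2 null against control cells minus that at day 32 against vehicle was 0.67 for Ezh1, -0.41 for Suz12 and -0.75 for Phf19. The same difference taken from day 18 was -0.58 for Phf19. Only the Phf19 difference from day 32 held under all 10 alternatives, where it lay between -0.83 and -0.42. The Ezh1 and Suz12 differences were each lost in 7 of 10 and the Phf19 difference from day 18 in 4 of 10. No other member was singled out.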

How the results depend on the processing

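The 10 members gave 160 values over the 16 comparisons, of which 40 were called. Under 1740 alternative values 1633 kept their side of the threshold, 71 calls were lost, 36 were gained and 0 calls turned direction. Among 1304 alternative values of uncalled results, 78 had the other sign and stayed uncalled, and these are counted within the 1633. Of the 40 calls, 19 held under all alternatives, 11 were lost only when an array was left out, where 1 group has a lone array assumed to vary like the others, and 10 were lost under another alternative too.

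The number of members called at day 5 was 2, and it was 1 with quantile normalization, 5 with array medians aligned and 4 with a variance trend. From day 18 to day 32 it was 1, and it was 0 with the replicate block and with medians aligned and 2 with the lowest 30% of genes left out, a variance trend or array weights. The block changed no other call of the time course. In Ezh1 pre-rescue against Ezh2 pre-rescue cells it was 1, and it was 2 with no replicate block, medians aligned, a variance trend or array weights. Medians aligned also gave 1 in place of 0 in Ezh2 pre-rescue against control, and array weights 2 in place of 1 in Ezh2 post-rescue against Ezh2 pre-rescue. With the spread of the experiments matched, the differences of effects gave 1 in place of 3 for day 32 and 0 in place of 1 for day 18. The cause was not tested.

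With each array left out, the counts ranged from 0 to 1 at day 5, 4 to 5 at day 18, 0 to 0 from day 18 to day 32, 0 to 1 in Ezh1 pre-rescue against control, 0 to 1 in Ezh2 pre-rescue against control, 0 to 2 in Ezh2 post-rescue against control, 1 to 3 in Ezh2 pre-rescue against Ezh2 null, 0 to 1 in Ezh2 post-rescue against Ezh2 null, 0 to 0 in Ezh1 pre-rescue against Ezh2 pre-rescue, 0 to 1 in Ezh2 post-rescue against Ezh2 pre-rescue, 1 to 4 for the difference from day 32 and 0 to 1 for that from day 18. Where Phf19 was lowest it lay near the array median, at 5.16 with vehicle and 5.95 in Ezh2 pre-rescue cells. Array background can compress changes of low signals, and whether it did so for Phf19 was not tested.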
